A study of Saccharomyces cerevisiae with 8 samples.

Results

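MazF, an endoribonuclease from bacteria, cuts RNA immediately upstream of ACA, and N6-methyladenosine (m6A) at the leading A of that triplet blocks the cut. In budding yeast the methyl group is placed on meiotic mRNA by the methyltransferase encoded by IME4, and cells without IME4 lack that enzyme. The sites described here are ACA sites with a normalized cleavage efficiency below 0.1 in both input libraries of the IME4 deletion. They numbered 5762, in 3044 gene models, of the 42007 sites measured in all 4 input libraries (13.7%) and of 76330 distinct sites listed.

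The RNA was polyadenylated RNA of diploid SK1 yeast after induction of meiosis. All groups were MAT a/alpha, with lys2/lys2, ho::LYS2/ho::LYS2 and ndt80::LEU2/ndt80::LEU2, so NDT80, which drives exit from meiotic prophase, was disrupted throughout. WT cells carried IME4 and KO cells were ime4::HIS3/ime4::HIS3. Each genotype gave RNA without enrichment (input) and RNA enriched with anti-m6A antibody (IP). There were 2 biological replicates per group and 8 libraries in all. Efficiency is a fraction from near 0 to 1, and a high value was read as frequent cutting, a direction no label states. Only fractions were deposited: the depth of a site is unknown and no counting interval could be set. Of 27 listed IME4 sites the WT inputs measured 21 and 23 and the KO inputs 2 and 0. The meiotic genes IME1, IME2, SPO11, HOP1, ZIP1, REC8 and DMC1 had sites measured in every library. RME1, the repressor of meiotic entry, had 0 and 3 of its 15 sites measured in WT input and all 15 in both KO inputs. In IP the order was the other way, with 8 and 8 RME1 sites measured in WT and 4 and 6 in KO.

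Because the KO input values chose the sites, those values are a description only. Among the chosen sites the median was 0.0289 in KO input replicate 1 and 0.0287 in replicate 2. The sites nearest the limit were FAA1 +1258, with a higher KO input value of 0.0999, and TSC3 +178 and KTR4 +325, with 0.0999 each. The number after a gene name is the distance in nt of the site from the 5' start of its gene model. Just outside were CIR2 +379, IES2 +454 and AKL1 +2439, each with a higher KO input value of 0.1002. A further 1156 sites were below 0.1 in KO input replicate 1 alone, and 1231 in replicate 2 alone.

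WT input resembled KO input at most of these sites. The WT input medians were 0.0449 in replicate 1 and 0.0400 in replicate 2, where all sites measured in the 4 inputs had 0.639 and 0.642. Both WT inputs were below 0.1 at 4280 of the 5762 sites (74.3%) and both were at or above 0.1 at 1051 (18.2%), with 431 between. Over all 42007 sites, 13.3% were below 0.1 in both WT inputs. Read from the WT side, 5574 sites were below 0.1 in both WT inputs, and 4280 of these (76.8%) were among the chosen sites. The other 1294 had a median KO input efficiency of 0.118, close to the limit. Both inputs of WT stood above both of KO at 2988 chosen sites and below both at 1087. The choice of low KO values favours the first count. The same counts were not made over all measured sites, so they do not mark these sites out.

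**Figure D1:**
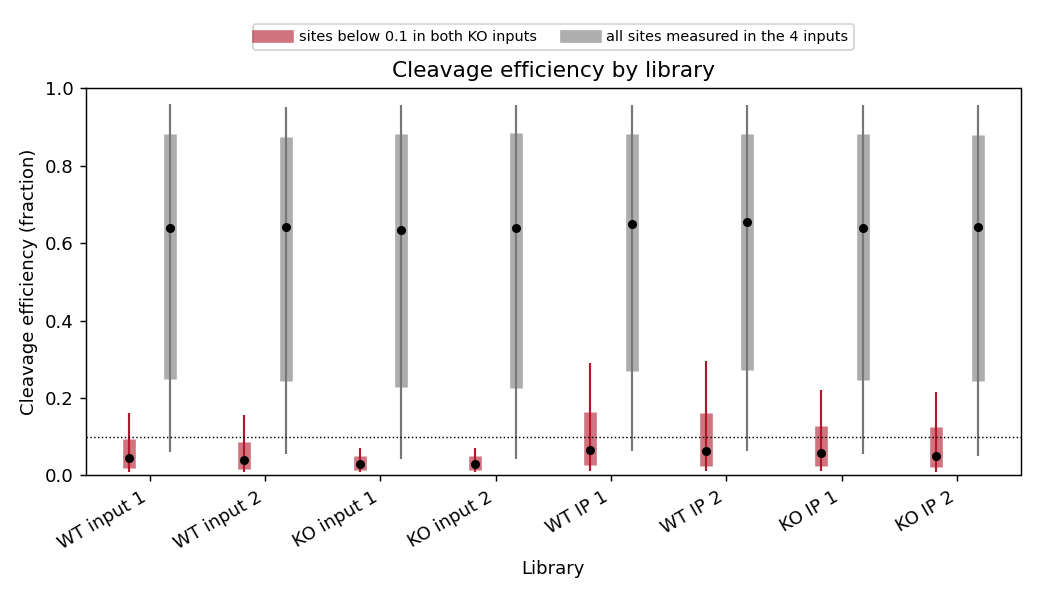
Cleavage efficiency (fraction) in each of the 8 libraries, for the sites below 0.1 in both KO inputs (red) and for all sites measured in the 4 inputs (grey). Points are medians, thick bars the middle 50% of sites and thin lines the 10th to 90th percentiles; the dotted line marks 0.1. The red medians lie between 0.0287 and 0.0661 in every library.

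The IP libraries took no part in the choice. Of the chosen sites 3276 were measured in both KO IP libraries, 3661 in both WT IP libraries and 2789 in all 8 libraries, while 818 were measured in no IP library. In KO IP, 1976 of 3276 (60.3%) were again below 0.1 in both replicates, against 12.4% of all sites measured there. At or above 0.1 in both were 427, and 4 exceeded 0.5 in both. In WT IP, 1998 of 3661 (54.6%) were below 0.1 in both replicates, against 11.6% of all sites, and 50 exceeded 0.5 in both. Whether input and IP came from the same cultures was not stated in the sources used here.

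Sites with the lowest KO input were also the lowest elsewhere. The 573 sites below 0.01 in both KO inputs had a median of 0.0222 in WT IP and 0.0222 in KO IP, and 99.7% of them were below 0.1 in both WT inputs. The 894 sites whose higher KO input value lay between 0.075 and 0.1 had medians of 0.146 in WT IP and 0.0899 in KO IP, and 49.4% were below 0.1 in both WT inputs. The plot of values by library shows a wider spread in the IP libraries than in the inputs.

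Of the 2789 sites measured in all 8 libraries, 1116 (40.0%) were below 0.1 in every library and 26 were below 0.01 in every library. The lowest was REC8 +2220 (chromosome 16, position 572549, minus strand), in the gene of the meiotic cohesin subunit. It had 0.000407 and 0.000613 in WT input, 0.000948 and 0.000712 in KO input, 0.000693 and 0.000505 in WT IP, and 0.000646 and 0.000670 in KO IP. Both KO inputs lay just above both WT inputs, the IP groups overlapped, and no library rose above 0.001. Next came SGT2 +1037, a co-chaperone gene, with at most 0.00206 in any library, SDH2 +305, a succinate dehydrogenase subunit gene, with at most 0.00234, and RPL25 +338 with at most 0.00327. PRE10 +919, of the proteasome core, did not exceed 0.00345, and YIL071W-A +69, at a position listed under several models, did not exceed 0.00349. SDH1 +1832 reached 0.00510 and SKP1 +439, of the SCF ubiquitin ligase, reached 0.00583.

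The sites were spread thinly over the genome. Of the 3044 models, 1563 held 1 chosen site, 1357 held 2 to 4 and 124 held 5 or more. FAS1, which encodes a fatty acid synthase subunit, held the most, 12 of 45 measured sites, from +316 to +6278, with 30 unchosen sites between them. At those 12 sites KO input ran from 0.00174 to 0.0718 and WT input from 0.00982 to 0.195, while the median KO input efficiency of its other sites was 0.756. BLM10, a proteasome activator gene, held 11 of 33 and CDC53, the cullin gene, held 9 of 24. Among meiotic genes ZIP1, of the synaptonemal complex, held 8 of 32, and IME2, the meiotic kinase gene, held 6 of 20, whereas IME1 held none of its 13. No IME4 site could be chosen, since the KO inputs measured hardly any. In these genes low sites alternated with well cut ones: 22 of the other ZIP1 sites lay between its first and last chosen site, with KO input from 0.145 upward over all its other sites.

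In RPL23A the low sites formed an unbroken block near the 5' end. RPL23A, a large-subunit ribosomal protein gene on chromosome 2, held 8 chosen sites of 13, and all 8 measured sites from +215 to +651 belonged to them. Their KO input values were 0.0118 to 0.0905 and their WT input values 0.00434 to 0.0275. Equal values recurred among them, with 0.0139 at 5 of the 8 sites in WT input replicate 1, so these sites are not 8 finely resolved measurements; what set the equal values was not tested. The remaining 5 sites of the gene, at +130 and beyond +651, had 0.124 to 0.987 in KO input and 0.202 to 0.889 in WT input. RPL19B, also a ribosomal protein gene, held 8 of 13. All its measured sites from +162 to +758 were chosen, and 3 unchosen sites lay between these and its last chosen site, +1046. Equal values recurred there too, with 0.00642 at several sites in WT input replicate 1. RPS0B held 8 of 15, from +249 to +1118 with 5 unchosen sites between. TUB3, an alpha-tubulin gene, held 9 of 17, from +229 to +1495 with 6 between. RPL23A, RPL19B, RPS0B and TUB3 are all known to carry an intron close to the start of the coding sequence. They were singled out after their values were seen. The deposited table gave no exon, intron or UTR, so whether a given site lies in an intron was not determined.

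**Figure D2:**
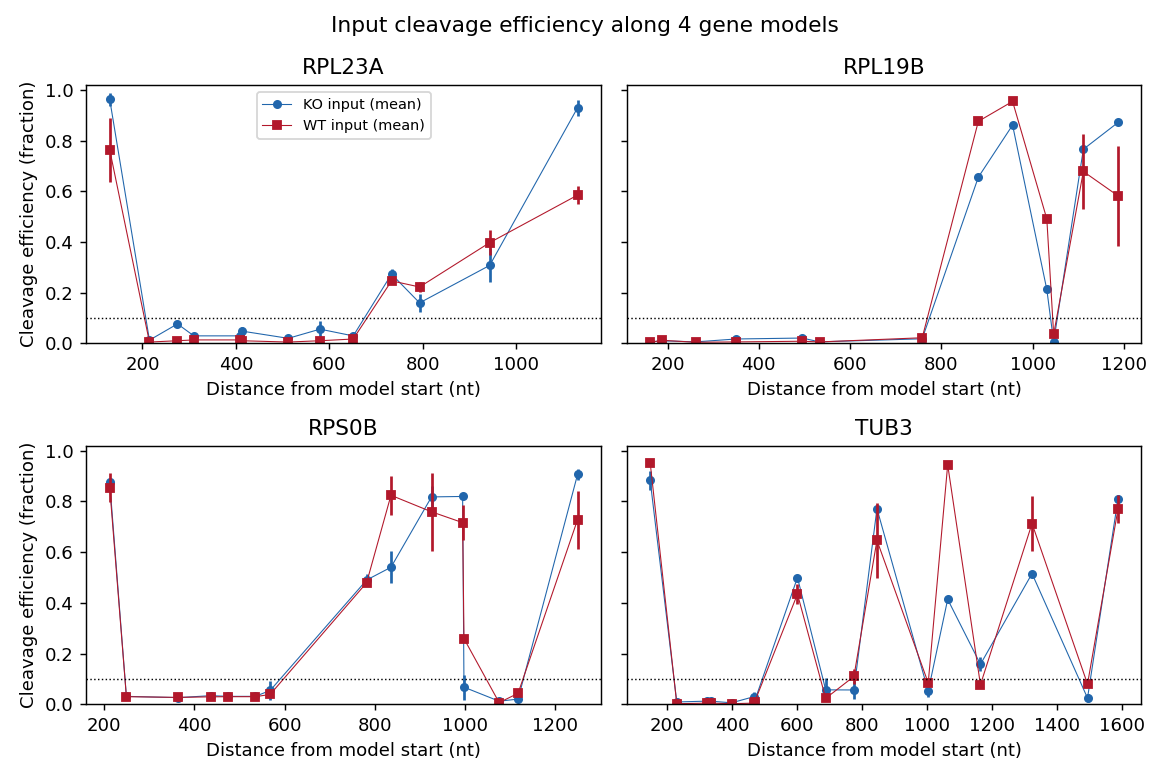
Input cleavage efficiency (fraction) at each site measured in the 4 inputs along RPL23A, RPL19B, RPS0B and TUB3, against the distance in nt from the start of the gene model. Symbols are means of 2 libraries, bars join the 2 libraries, and the dotted line marks 0.1; in RPL23A the 8 sites from +215 to +651 lie below the line in both genotypes.

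Ribosomal protein genes were therefore split by whether they are known to carry an intron, a split made after the data were seen and from general knowledge, so it is described without a test. Genes with an intron had 217 chosen sites of 625 (34.7%), and those without had 45 of 244 (18.4%). Other listed genes with an intron, 40 models, had 84 of 373 (22.5%). That list was not complete, so the remaining models still hold genes with an intron, such as ECM33. All remaining models had 5416 of 40765 (13.3%), or 5298 of 40465 (13.1%) without rRNA, tRNA, snoRNA and snRNA models. In ribosomal protein genes the difference was largest between 150 and 500 nt from the model start. Between 150 and 300 nt from the model start, 51 of 76 sites in ribosomal protein genes with an intron were chosen (67.1%), and between 300 and 500 nt 69 of 91 (75.8%). The same stretches of those without an intron gave 10 of 51 (19.6%) and 15 of 65 (23.1%), and other genes with an intron gave 28 of 40 (70.0%) and 17 of 66 (25.8%). In the first 150 nt, 1 of 22 sites was chosen in ribosomal protein genes with an intron (4.55%), and beyond 1000 nt 15 of 99 (15.2%). Many ribosomal protein genes have a near-identical copy, so reads can be shared and values of single genes are uncertain.

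**Figure D3:**
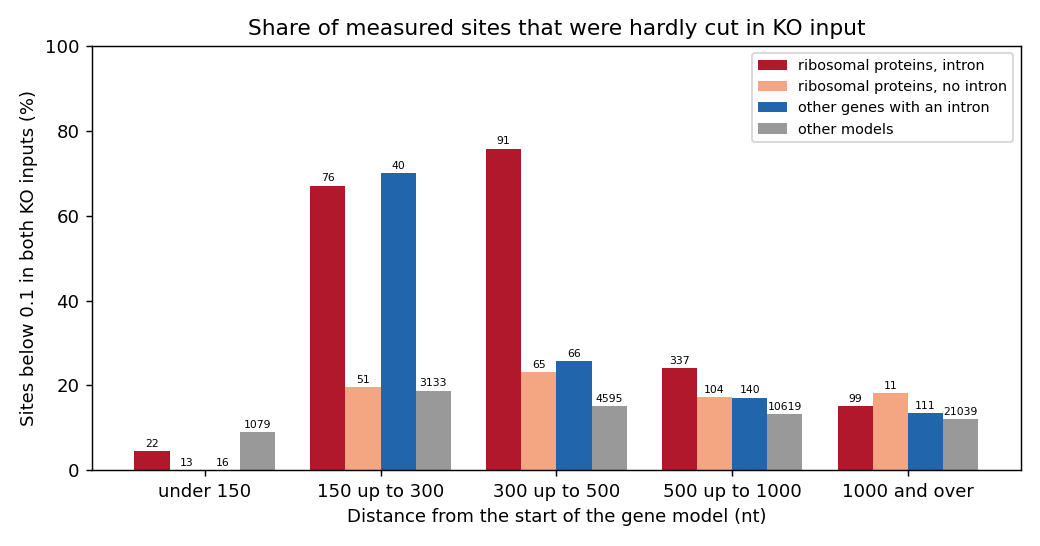
Percentage of sites measured in the 4 inputs that were below 0.1 in both KO inputs, by distance from the start of the gene model (nt). Shown are ribosomal protein genes with and without a known intron, other listed genes with an intron, and other models. The other models leave out rRNA, tRNA, snoRNA and snRNA models and can hold intron genes that were not listed. Numbers above the bars count the measured sites; between 150 and 500 nt the bars of ribosomal protein genes with an intron stand at 67.1% and 75.8%.

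Models of non-coding RNAs also held many such sites. In tRNA models 52 of 84 measured sites were chosen (61.9%), in rRNA models 36 of 102 (35.3%) and in snoRNA and snRNA models (names starting with snR) 30 of 114 (26.3%). Both copies of the 25S rRNA model held 10 of 30, at nearly the same offsets, and do not count as separate measurements. Over all chosen sites, 21 had values equal in every library to those of another chosen site. The elongation factor 2 genes EFT1 and EFT2, which are near-identical, held 7 each.

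Of the gene lists the ribosomal proteins had the highest share, 267 of 912 sites (29.3%), where all measured sites had 13.7%. That list held 137 genes with measured sites, and the ribosomal protein classes with and without an intron 90 and 36 models. Some of its sites thus fell outside these classes. Acetate and TCA cycle genes had 98 of 561 (17.5%), meiotic entry genes 39 of 230 (17.0%), cell wall protein genes 18 of 107 (16.8%), and glycolysis and gluconeogenesis genes 51 of 305 (16.7%). Chaperone genes had 71 of 501 (14.2%), translation factor genes 64 of 465 (13.8%), m6A machinery genes 10 of 73 (13.7%) and recombination and synapsis genes 75 of 589 (12.7%). Transposon and subtelomeric repeat families had 30 of 313 (9.58%), the lowest share. PCK1 +448, in the gene of the gluconeogenic PEP carboxykinase, was among the least cut, with 0.000938 and 0.000670 in WT input and 0.000986 and 0.00101 in KO input. Its IP values were 0.00460 and 0.00476 in WT and 0.0170 and 0.00482 in KO, so both KO values lay above both WT values, though by little (adjusted p = 0.886 for IP, limma). In the m6A machinery the lowest were DYN2 +196, at 0.00954 and 0.00438 in WT input, and MUM2 +657, at 0.0211 and 0.0216; MUM2 is a subunit of the methyltransferase complex. Other low sites lay in IME2 (+1276), MCK1 (+1007), RDH54 (+3113), RPL40B (+174), ENO1 (+1271), SDH1 (+584), STI1 (+284), CDC37 (+1300), TEF2 (+1692), PAB1 (+602), FLO11 (+8572), YRF1-6 (+3283) and PIR3 (+381). All of these were below 0.02 in each of the 4 inputs. FLO11, YRF1-6 and TEF2 contain repeats or have near-identical copies, so their values are uncertain.

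Place within the model was described without a test, beside that of all measured sites. Last listed sites made up 4.08% of the chosen sites (235) and 6.86% of all measured sites, and first listed sites made up 5.33% and 4.77%. The next listed site downstream lay 50 to 100 nt away at 48.3% of chosen and 39.8% of all sites, and the next upstream at 47.2% and 40.1%. Offsets of 150 up to 300 nt held 12.9% of chosen and 8.18% of all sites. Without ribosomal protein, listed intron and non-coding models, last listed sites made up 3.57% against 6.57% and first listed sites 4.51% against 4.43%. The next site lay 50 to 100 nt downstream at 49.2% against 39.9%, and upstream at 47.8% against 40.2%. Offsets of 150 up to 300 nt held 11.1% against 7.74%. With each model divided into 5 equal stretches up to its last listed site, the chosen share of measured sites was 15.4%, 16.3%, 14.1%, 13.1% and 12.4% from the 5' to the 3' end. The plus strand held 51.1% of chosen and 50.8% of all sites. A chosen site was followed by another chosen site at 16.6% of its measured neighbours and an unchosen site at 13.6%; outside the same models these were 13.6% and 13.3%.

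WT IP was tested against KO IP because neither group chose the sites. The fit was limma's across all 19503 sites measured in the 4 IP libraries, with Benjamini-Hochberg adjustment over all of them and only these libraries in the variance. Of the 2789 chosen sites, 48 were lower in WT IP (1.72%, where 14.1% of all tested sites were lower) and 329 were higher (11.8%, where 18.6% were higher). The median difference was 0.013 over chosen sites and 0.0085 over all tested sites, but the order of the medians turned with the scaling: they were 0.00068 and 0.0022 after quantile normalization, and 0.0061 and 0.0019 after median centring. A site near 0 in KO leaves little room for a lower value in WT, but whether this set the number of lower sites was not tested. The 48 lower sites had a median KO IP efficiency of 0.246, and the 329 higher ones had 0.0387. All 48 fell by at least 0.1, so their KO IP values could not lie near 0. With 2 libraries a group, an exact test of 1 site could not pass any usual threshold. These counts rested on all 4 libraries. Without any 1 of them, fewer sites were called both among the chosen sites and over all tested sites, and none without WT IP replicate 2. With the replicate number as a block, 17 chosen sites were lower and 187 higher, beside 2270 lower and 2844 higher over all 19503 tested sites.

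**Figure D4:**
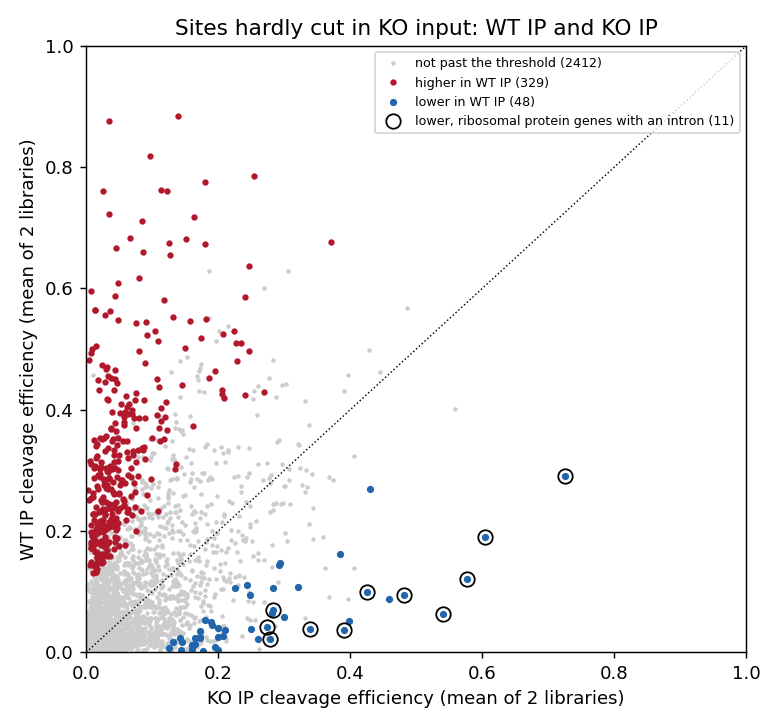
Mean efficiency in KO IP (horizontal) and WT IP (vertical), as fractions over 2 libraries each, for the 2789 chosen sites measured in all 4 IP libraries. Colours mark the 329 sites higher and the 48 lower in WT IP at an adjusted p below 0.05 (limma), circles the 11 lower sites in ribosomal protein genes with an intron, and the dotted line equality.

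Of the 8 sites that fell most in WT IP, at most 1 per gene, 6 lay in ribosomal protein genes with an intron. At RPL16B +362 (chromosome 14, position 512519, minus strand), efficiency was 0.0414 and 0.0855 in WT IP and 0.480 and 0.601 in KO IP. Inputs there were 0.00751 and 0.00476 in WT and 0.0166 and 0.0180 in KO. The site was thus hardly cut in either input, and KO IP stood above the other 3 groups. The change was -0.477 (SE 0.054, limma's adjusted p = 0.011, n = 2 per group), and the call ended without either WT IP replicate.

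RPL33B +354 (chromosome 15, position 788566) had 0.103 and 0.139 in WT IP and 0.536 and 0.617 in KO IP, a change of -0.456 (SE 0.042, limma's adjusted p = 0.0075). RPS27B +201 (chromosome 8, position 144816) had 0.337 and 0.246 in WT IP and 0.740 and 0.712 in KO IP, and a second site of the gene, +296, changed by -0.414. Both sites were below 0.05 in all 4 inputs, and the genotypes did not overlap in IP. RPS16A +329 changed by -0.387, AIM7 +459 by -0.371, RPL14A +424 by -0.353, ECM33 +359 by -0.347 and RPS21B +237 by -0.300. ECM33, a cell wall protein gene, is also known to carry an intron but was not on the list, and no role of AIM7 is given here. Leaving out WT IP replicate 2 ended each of these calls, and RPS16A +329, the least stable of them, also lost its call on the logit scale (adjusted p = 0.0578).

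Of the 108 sites tested in ribosomal protein genes with an intron, 11 were lower and 1, RPS13 +895, was higher in WT IP, with a median difference of -0.0026. The 11 are 10.2% of the sites tested, where 1.72% of all chosen sites tested and 14.1% of all tested sites were lower. In the remaining models, outside the listed intron genes, the 2 ribosomal protein classes and the non-coding RNAs, 35 of 2534 were lower and 314 higher, with a median of 0.014. After quantile normalization these were 65 and 220, with a median of 0.0010, and after median centring 41 and 293, with a median of 0.0078. The 11 became 10 with the replicate block and 13 after quantile normalization, and 2, 0, 5 and 4 without WT IP replicate 1, WT IP replicate 2, KO IP replicate 1 and KO IP replicate 2. Of the 11 sites, 9 lay between 200 and 500 nt from the model start; the others were RPL27A +668 and RPL26A +938. Ribosomal protein genes without an intron had 0 lower and 7 higher of 36, other genes with an intron 2 and 5 of 59, rRNA models 0 and 0 of 34, tRNA models 0 and 1 of 10, and snoRNA and snRNA models 0 and 1 of 8. At an unadjusted p below 0.05, rRNA models had 2 lower and 0 higher, and ribosomal protein genes without an intron had 2 lower and 11 higher. The difference between these classes was not tested.

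The 329 sites higher in WT IP had a median efficiency of 0.292 in WT IP and 0.159 in WT input. The largest rise was at LRS4 +784 (chromosome 4, position 1332449, plus strand), in a monopolin subunit gene. WT IP had 0.836 and 0.916 and KO IP 0.0208 and 0.0483, a rise of 0.841 (SE 0.041, limma's adjusted p = 0.0036, n = 2 per group). WT input had 0.363 and 0.994, far apart and with replicate 2 at its library's highest value, and KO input had 0.0903 and 0.0412. All WT libraries lay above all KO libraries, though the choice kept the KO inputs below 0.1.

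MRP51 +1139, in a mitochondrial ribosomal protein gene (chromosome 16, position 336959), had 0.849 and 0.921 in WT IP and 0.255 and 0.0222 in KO IP, a rise of 0.747 (limma's adjusted p = 0.013). LSM3 +363, in the gene of an Sm-like protein of RNA decay and splicing, had 0.820 and 0.702 in WT IP and 0.0217 and 0.0293 in KO IP. PIF1 +2372, in a DNA helicase gene, had 0.782 and 0.854 against 0.138 and 0.0561. None of these groups overlapped, and WT input lay between, at 0.438 and 0.513 for MRP51, 0.660 and 0.436 for LSM3 and 0.193 and 0.209 for PIF1. CCW22 +105 rose by 0.688, ALD4 +974, in the mitochondrial aldehyde dehydrogenase gene, by 0.649, YPS7 +1453, in a yapsin protease gene, by 0.639, and YOS9 +1518, in the gene of a lectin of ER quality control, by 0.628. CCW22 +105 had the least secure call: it ended with the replicate block (adjusted p = 0.0518) and after quantile normalization (0.0512). All 8 calls ended without WT IP replicate 2, where adjusted p was 0.0541 or more. Among the 329 sites as a whole, both WT inputs stood above both KO inputs at 315. Over all chosen sites this held at 2988 of 5762, and the choice of low KO input values favours it. It was not counted over all measured sites. Both WT inputs were still below 0.1 at 57 of the 329.

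**Figure D5:**
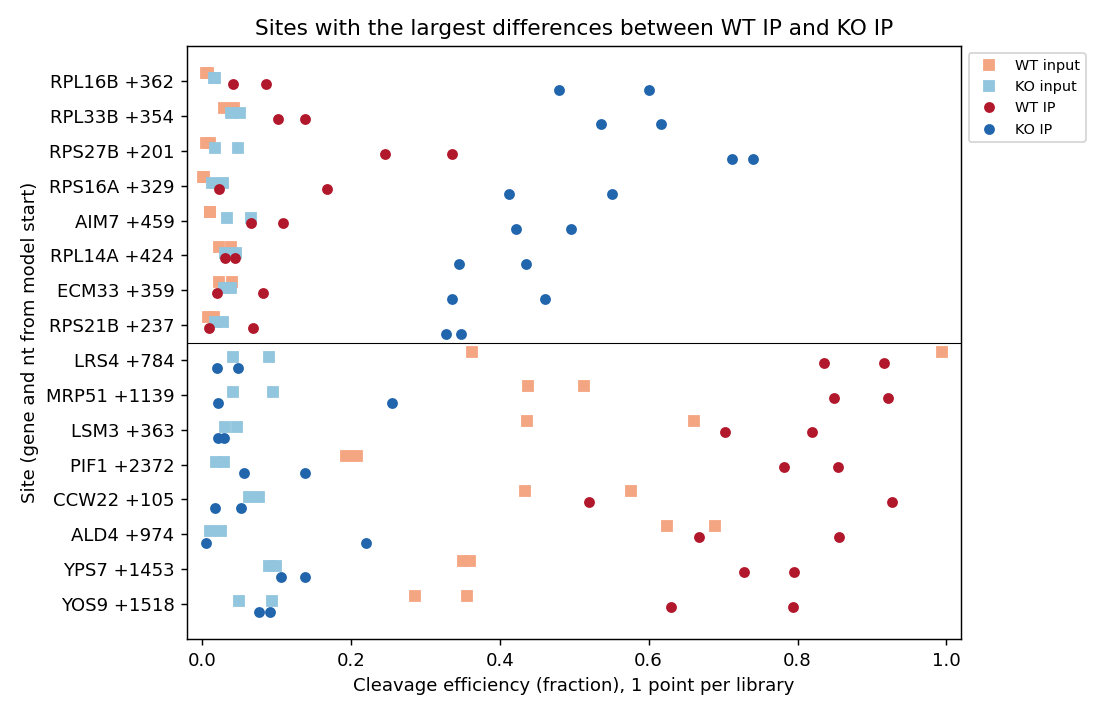
Cleavage efficiency (fraction) in each library, 1 point per library, at the 8 chosen sites with the largest fall (above the line) and the 8 with the largest rise (below it) in WT IP against KO IP, at most 1 per gene. Squares are inputs and circles IP libraries. Above the line both KO IP points lie above every other library. Below it every WT library lies above every KO library, though the choice kept the KO inputs below 0.1.

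By list, the higher and lower sites of WT IP against KO IP among those tested were 18 and 0 of 85 for acetate and TCA cycle genes, 9 and 0 of 53 for recombination and synapsis, and 9 and 11 of 149 for ribosomal proteins. The higher shares of the first and the second were 21.2% and 17.0%, beside 11.8% of the chosen sites tested and 18.6% of all tested sites. Ribosomal proteins had 7.38% lower, beside 1.72% of the chosen sites tested and 14.1% of all tested sites. Differences between the lists were not tested. Translation factors had 7 and 0 of 36, glycolysis and gluconeogenesis 6 and 0 of 31, chaperones 3 and 0 of 44 and meiotic entry 2 and 1 of 28. Transposon and subtelomeric repeat families had 4 and 0 of 16, cell wall proteins 3 and 0 of 11 and the m6A machinery 0 and 0 of 6 (3 higher and 0 lower at an unadjusted p below 0.05).

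A few sites were well cut in WT input although hardly cut in KO input. Only 8 of 5762 had both WT inputs above 0.5, and 157 had both above 0.25. FBA1 +899, in the aldolase gene (chromosome 11, position 331779, minus strand), had 0.779 and 0.883 in WT input, 0.0644 and 0.0903 in KO input, 0.502 and 0.626 in WT IP, and 0.0191 and 0.0060 in KO IP. WT stood above KO in both fractions, with no overlap. ATP3 +448, in the gene of the ATP synthase gamma subunit, had 0.703 and 0.756 in WT input, 0.0942 and 0.0834 in KO input, 0.464 and 0.499 in WT IP and 0.0057 and 0.0026 in KO IP. RPL15B +238, which has a near-identical copy, had 0.847 and 0.576 in WT input and 0.0102 and 0.0053 in KO IP.

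The others of this rank were DCS1 +884, in the gene of a decapping scavenger (WT input 0.831 and 0.639), ALD4 +974 (0.625 and 0.689), FSF1 +987 (0.620 and 0.730), MSC3 +1844 (0.513 and 0.829) and TRE2 +1853 (0.512 and 0.528). FSF1 +987 was the last listed site of its model, and DCS1, FSF1, MSC3 and TRE2 had no WT IP value at these sites. Since low KO input values chose these sites, the difference from KO input carries no test.

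WT IP was also set against WT input, over 25877 sites, to ask how the pulldown moved these sites in WT. Of 3661 chosen sites tested, 7 were lower in IP (0.191%, where 5.17% of all sites were lower) and 120 were higher (3.28%, where 4.96% were higher). No call was kept at any site when any of the 4 libraries was left out, with the replicate block or on the logit scale. In the main fit, 57 of the 3661 chosen sites were lower and 596 higher at an unadjusted p below 0.05 (limma). Over all 25877 sites, 7842 reached that level in either direction. TRK1 +3386, a potassium transporter gene, had 0.102 and 0.0623 in WT input and 0.735 and 0.854 in WT IP. GDT1 +463 had 0.251 and 0.242 against 0.911 and 0.882, PIF1 +2372 the values above, MLS1 +1836, in the malate synthase gene, 0.255 and 0.259 against 0.755 and 0.815, and MNN10 +1368 had 0.364 and 0.293 against 0.860 and 0.830. The rises were 0.713, 0.650, 0.617, 0.528 and 0.517 in that order. In the other direction SGS1 +4122, in the RecQ helicase gene, had 0.310 and 0.297 in WT input and 0.0250 and 0.0260 in WT IP, a change of -0.278. ATP3 +448 changed by -0.248, SRP54 +478 by -0.221, GLO2 +984 by -0.213 and YEH1 +1828 by -0.198.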

How the data were processed

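The authors deposited 1 table of normalized cleavage efficiency, a fraction per ACA site and library, with 77601 lines for 6104 gene models. No source used here gives the formula of the fraction, its normalization, any depth minimum or the genome build. Tools listed, with no role, were bedtools 2.26.0 and STAR 2.5.3a, per the submitters' processing notes. Positions are those of the deposited table. Of 1241 positions listed under several models the first line was kept (values differed at 107). Names came from the R64 gene table, which 5598 of 5762 chosen sites matched. No genome sequence was used here.

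The limma package (3.58.1, R 4.3.3) was applied to the fraction itself, using the 4 libraries of a contrast and moderated variances, two-sided, adjusted by Benjamini and Hochberg over all tested sites at 0.05. KO input was kept out of these fits because its values chose the sites. The fit was tested on simulated data: where few sites changed it called none, and a second simulation with many changed sites, added after that, recovered most of the larger changes.

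Sites named are, by rule, up to 8 each way for WT IP against KO IP and 5 each way for WT IP against WT input past the threshold, the 8 highest in WT input, the 8 lowest over all libraries, up to 6 models with most chosen sites, 3 each side of the limit and up to 2 per gene list. The members and lists were chosen with earlier results of these data known; ribosomal protein classes by intron, and RPL23A, RPL19B, RPS0B, ZIP1, IME2, EFT1, EFT2, RPS27B +296, RPS13 +895, RPL27A +668 and RPL26A +938, were added after the data were seen. The replicate number was checked as a pairing: same-numbered libraries' deviations correlated at -0.018 (WT IP and KO IP) and 0.063 (WT IP and WT input). Alternatives were a logit scale (offset 0.01), all 8 libraries, a mean of at least 0.05, quantile normalization, median centring, a robust and trended prior, the block, each library left out, no value of 0.99 or above, and limits of 0.05 and 0.2.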

Additional observations from a re-analysis of the deposited data

How the results depend on the processing

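Of the named differences, 16 for WT IP against KO IP and 10 for WT IP against WT input were refitted under each alternative that could be run, and none of these changed direction. For WT IP against KO IP, chosen sites lower and higher (48 and 329) became 110 lower on the logit scale, 125 and 588 with all 8 libraries, 83 lower after quantile normalization, 89 lower with the robust and trended prior, and 17 and 187 with the replicate block. Leaving out 1 library gave 0 to 15 lower and 0 to 52 higher. Choosing sites below 0.05 gave 30 and 139, and below 0.2 gave 649 higher. For WT IP against WT input, lower and higher (7 and 120) became 0 and 0 on the logit scale, with the replicate block and in each fit without 1 library, 28 and 286 with all 8 libraries, 15 and 74 after median centring, and 43 and 309 with the robust and trended prior. They were 11 lower without values of 0.99 or above, 0 and 46 below 0.05, and 20 and 289 below 0.2. With all 8 libraries KO input enters the variance. The numbers share no stated culture, so the block is no paired design. The cause of these moves was not tested.

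The choice itself gave 3642 sites at 0.05 and 8758 at 0.2. The share below 0.1 in both WT inputs (74.3%) was then 85.6% and 59.0%, and 73.0% without ribosomal protein, listed intron and non-coding models. It was 66.1% to 68.2% with 1 KO input alone and 77.1% to 78.9% with 1 WT input alone. Last listed sites made up 3.48% among sites measured in all 8 libraries and 3.57% without the named models. Next sites 50 to 100 nt downstream made up 50.2% at 0.05 and 46.8% at 0.2. Offsets of 150 up to 300 made up 14.1% at 0.05, 11.7% at 0.2, 11.6% among sites in all 8 libraries and 11.1% without the named models. Unknown depth limits every value.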
